A study of Mus musculus with 6 samples.

Results

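The mitochondrial ribosome was examined through the 74 genes, of 12393 measured, whose symbols start with Mrpl or Mrps followed by a number. They were chosen by symbol among probe sets that the platform annotation gives to 1 gene, without use of their values. By symbol, 47 encode proteins of the large subunit and 27 of the small subunit. Expression was measured on Affymetrix arrays, 1 per mouse, in liver from mice of the C57 strain with a wild type genotype, at an age of 1 month. In 3 mice the liver had received an adenoviral vector overexpressing TFEB, a transcription factor of lysosomal and autophagy genes, and the livers of 3 mice had received no injection. No vector without TFEB is described, so vector, injection and TFEB cannot be told apart here, and the labels name neither the promoter of the vector nor the time between injection and harvest. Because whole liver was profiled, fewer cells of a type and less RNA per cell cannot be told apart.

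Mitochondrial ribosomes translate the few proteins encoded by mitochondrial DNA, which are core subunits of the respiratory chain and of ATP synthase. Their RNAs come from mitochondrial DNA, whereas all their proteins are encoded in the nucleus, made in the cytosol and imported. Part of the proteins have counterparts in bacterial ribosomes, and the others are found in mitochondrial ribosomes and not in bacterial ones. In liver, nuclear genes for mitochondrial proteins are known targets of coactivators of the PGC-1 family and of the factors NRF1, GABP and the estrogen-related receptors.

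The arrays correlated at 0.9969 or more among not-injected livers, at 0.9917 or more among injected livers and at 0.9744 to 0.9879 between the groups, over probe sets, which are not independent. All 9 measured hepatocyte markers, among them Alb, Apoa1 and Ttr, had mean log2 values over the 6 arrays of 13.79 to 15.06. Spike-in controls also differed: all 18 hybridisation controls and 23 of the 24 poly-A controls were lower on every injected array, with median differences of -0.32 and -0.44. The part of labelling or hybridisation in the differences below was not tested. The only probe set of Tfeb read 7.50, 7.59 and 7.47 in not-injected and 7.48, 7.78 and 7.46 in injected livers, and the groups overlapped (difference 0.05 ± 0.10, SE; limma adjusted p = 0.716). Whether its probes match the transgene is not stated in the labels, so it does not check them.

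Most mitochondrial ribosomal protein genes did not pass the test, and those that did moved by small amounts. Of the 74 genes, 11 rose, 3 fell and 60 did not pass (limma, adjusted p under 0.05 over all genes). That is 18.9% called, where 28.1% of all genes were called. The rises made up 14.9% of the genes against 14.2% of all genes, and the falls 4.05% against 13.9%. Differences ran from -0.43 to 0.72 on the log2 scale, and 3 of the genes both passed the test and differed by 1.5-fold or more, as did 9.6% of all genes. The arrays of the groups did not overlap in 34 genes, 27 of them higher and 7 lower after injection; over all genes 46.2% did not overlap, 20.1% higher and 26.1% lower. The median absolute difference was 0.112 over the members and 0.164 over all genes. Among the 4137 other genes with mean values in the members' range of 8.42 to 12.26, the share called was 42.6%, with 22.5% higher and 20.1% lower, and the median absolute difference 0.221.

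**Figure D1:**
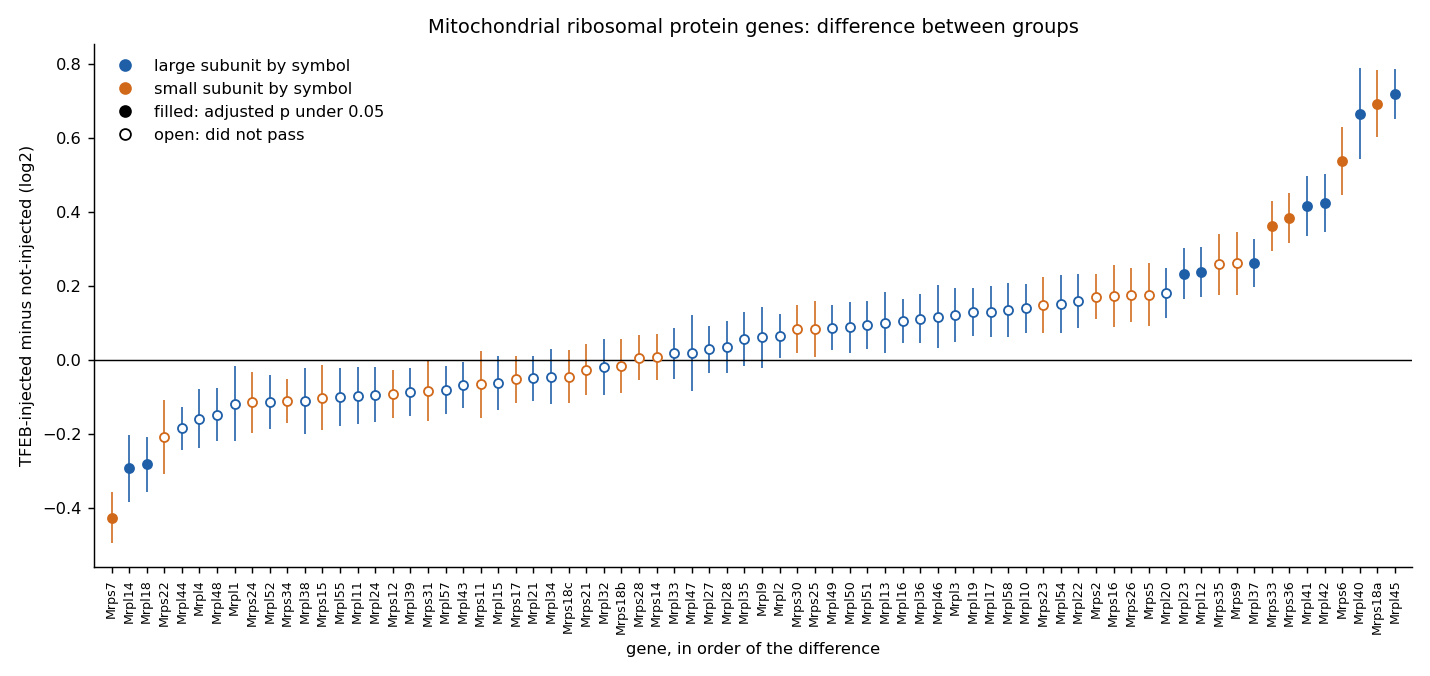
Difference between TFEB-injected and not-injected livers in log2 units for each of the 74 genes, in order of size, with bars of 1 standard error from limma (3 arrays per group), blue for the large and orange for the small subunit by symbol. Filled points passed the test: 11 lie above 0 and 3 below, and open points crowd around 0.

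The subunits gave similar shares. In the large subunit 7 of 47 genes rose and 2 fell (19.1% called), and the median difference was 0.062. In the small subunit 4 of 27 rose and 1 fell (18.5% called), and the median was 0.009. The median over all genes was -0.049. On each array, the median over large subunit genes of the value minus the not-injected mean was 0.045, -0.012 and -0.032 in not-injected and 0.051, 0.088 and 0.014 in injected livers. For the small subunit these medians were 0.061, -0.024 and -0.034 without injection and 0.017, 0.056 and 0.034 with it. In both subunits the arrays of the groups overlapped. Neither median kept its sign under every alternative. The small subunit gave -0.022 after a second quantile normalization and -0.008 after centring. The large subunit gave 0.025 and 0.045 in these 2 settings, and -0.04 when every probe set counted.

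Symbols and structures place 3 of these proteins differently. In resolved structures Mrps18a and Mrps30 belong to the large subunit, and Mrps36 is known as a component of the 2-oxoglutarate dehydrogenase complex. With that assignment 8 of 49 large subunit genes rose and 2 fell, with a median of 0.066. In the small subunit 2 of 24 rose and 1 fell, with a median of -0.004. Mrps18a and Mrps36 are thus among the 4 rises that the symbols assign to the small subunit, and Mrps6 and Mrps33 are the others.

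Mrpl45 had the largest rise of all members. Its protein lies near the exit of the peptide tunnel and helps to hold the ribosome at the inner membrane. It read 9.13, 9.06 and 9.08 in not-injected livers and 9.83, 9.72 and 9.88 in injected livers. Every injected array was above every not-injected one, by far more than the spread within a group. The rise was 1.65-fold (0.72 ± 0.07 on the log2 scale, SE, limma adjusted p = 0.000544).

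Mrpl40, a protein of the central protuberance, read 9.42, 9.23 and 9.25 without injection and 10.14, 9.69 and 10.06 with it. The groups did not overlap, but injected replicate 2 lay closest to the controls. The rise was 1.59-fold (0.67 ± 0.12, limma adjusted p = 0.00766), and it was 0.80 without injected replicate 2. Its call was lost without variance moderation (adjusted p = 0.0614).

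Mrpl41 and Mrpl42 encode proteins without a bacterial counterpart. Mrpl42 read 11.28, 11.13 and 11.22 in not-injected and 11.66, 11.72 and 11.52 in injected livers. Mrpl41 read 10.66, 10.57 and 10.56 in not-injected and 11.08, 11.10 and 10.86 in injected livers. Both were higher on all injected arrays, with rises of 0.42 ± 0.08 for each (limma adjusted p = 0.00732 for Mrpl42 and 0.00969 for Mrpl41). Another probe set of Mrpl41 gave 0.42 as well. The remaining probe sets of both genes, with means of 4.90 and 4.11, lay below the lower quartile of the arrays, and with them in a mean the rises were 0.23 for Mrpl41 and 0.25 for Mrpl42.

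Mrpl37, Mrpl12 and Mrpl23 rose by less. Mrpl37, which has no bacterial counterpart, read 8.35, 8.23 and 8.28 without injection and 8.49, 8.57 and 8.58 with it (0.26 ± 0.07, limma adjusted p = 0.0236). Its probe set is of a kind that can also match transcripts of other genes. Mrpl12 is the counterpart of the bacterial stalk protein that recruits translation factors, and it has also been described as a partner of the mitochondrial RNA polymerase. It read 11.60, 11.54 and 11.51 without injection and 11.72, 11.87 and 11.77 with it (0.24 ± 0.07, limma adjusted p = 0.0372). Mrpl23, a protein of the tunnel exit, read 10.45, 10.33 and 10.34 without injection and 10.68, 10.56 and 10.56 with it (0.23 ± 0.07, limma adjusted p = 0.0421). In all 3 genes the groups did not overlap, but the gaps between them were small. Mrpl12 lost its call when any single array was left out, with adjusted p-values up to 0.124. Mrpl23 lost it without not-injected replicate 2 or 3 or injected replicate 1 or 3, and Mrpl37 without not-injected replicate 2 or 3 or injected replicate 3.

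Both falls in the large subunit lost their call when some single arrays were left out. Mrpl18, whose protein sits in the central protuberance, read 10.19, 9.997 and 10.12 without injection and 9.83, 9.88 and 9.76 with it (-0.28 ± 0.07, limma adjusted p = 0.0282). Mrpl14, a protein of the face turned to the small subunit, read 9.86, 9.74 and 9.64 without injection and 9.33, 9.57 and 9.47 with it (-0.29 ± 0.09, limma adjusted p = 0.0479). Both were lower on all injected arrays. In size they, and the rises of Mrpl12, Mrpl23 and Mrpl37, were below the medians of the hybridisation (-0.32) and poly-A controls (-0.44). The part of labelling or hybridisation in falls or rises was not tested. Mrpl18 lost its call without not-injected replicate 1 or 3 or injected replicate 1 or 3. Mrpl14 kept it only when injected replicate 2 was the array left out. All 7 rises held without injected replicate 2 except that of Mrpl12.

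**Figure D2:**
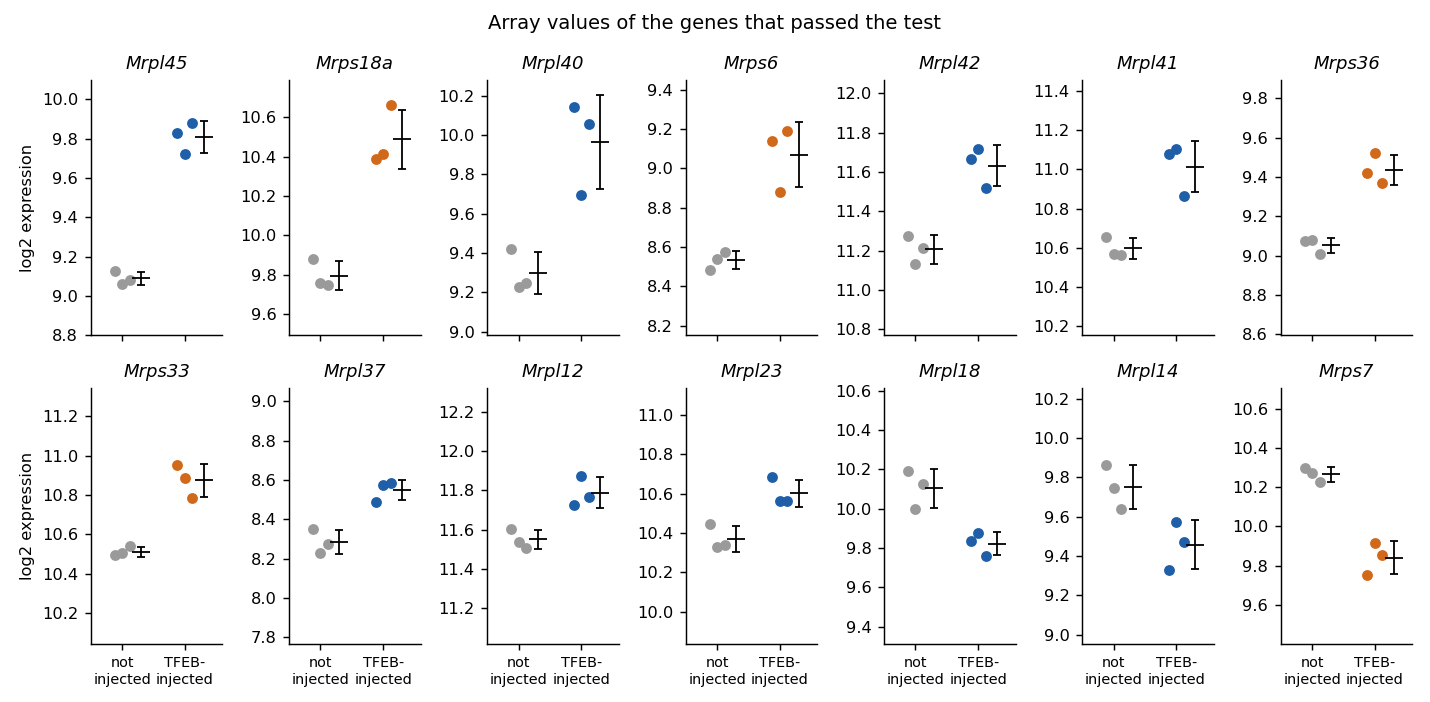
Log2 expression on each array for the 14 genes that passed the test, ordered from the largest rise (Mrpl45) to the largest fall (Mrps7). Grey points are not-injected livers, coloured points injected livers (blue for the large and orange for the small subunit by symbol), and black bars the mean with 1 SD (n = 3). All panels span the same number of log2 units, and in each the groups are apart.

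Mrps18a had the largest rise among genes with a small subunit symbol. It belongs to a family of 3 proteins related to bacterial S18, which sit at different places of the mitochondrial ribosome. Mrps18a read 9.88, 9.76 and 9.75 in not-injected and 10.39, 10.41 and 10.66 in injected livers. The injected arrays were all higher, and the rise was 1.62-fold (0.69 ± 0.09, limma adjusted p = 0.002). Its relatives read otherwise. Mrps18b was 9.74, 9.71 and 9.67 without injection and 9.59, 9.68 and 9.80 with it, and the groups overlapped (-0.02, 95% interval -0.187 to 0.156, limma adjusted p = 0.892). Mrps18c was 10.9998, 10.92 and 10.91 without injection and 10.87, 10.998 and 10.83 with it, again with overlap (-0.04, 95% interval -0.211 to 0.122, limma adjusted p = 0.671). The interval of Mrps18a, 0.481 to 0.905, lies apart from both, although the difference between family members was not tested.

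Mrps6, the counterpart of bacterial S6, read 8.48, 8.54 and 8.57 without injection and 9.14, 8.88 and 9.19 with it. Mrps33, a small subunit protein without a bacterial counterpart, read 10.49, 10.50 and 10.54 without injection and 10.95, 10.88 and 10.79 with it. Mrps36 read 9.07, 9.08 and 9.01 without injection and 9.42, 9.52 and 9.37 with it. In each gene all injected arrays were higher. The rises were 0.54 ± 0.09 for Mrps6, 0.36 ± 0.07 for Mrps33 and 0.38 ± 0.07 for Mrps36 (limma adjusted p = 0.0057, 0.00774 and 0.00616). In size those of Mrps33 and Mrps36 lay between the medians of the hybridisation (-0.32) and poly-A controls (-0.44).

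Mrps7 was the only small subunit gene that fell, and its fall was the largest of all members. Its protein is the counterpart of bacterial S7, which starts assembly of the head of the small subunit. It read 10.30, 10.27 and 10.22 without injection and 9.75, 9.92 and 9.85 with it. All injected arrays were lower, and the difference was -0.43 ± 0.07 (limma adjusted p = 0.00452), about the size of the poly-A spike-in median. The rises of Mrpl41 and Mrpl42 (0.42 each) were of about that size too. Mrps12, a protein of the decoding centre, read 10.91, 10.75 and 10.80 without injection and 10.73, 10.74 and 10.73 with it. Its groups did not overlap, but the difference did not pass (-0.09, 95% interval -0.243 to 0.062, limma adjusted p = 0.333), and its probe set can also match transcripts of other genes.

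The promoters of 4 of these genes are shown because Mrpl45 and Mrps18a had the largest rises and Mrps7 the largest fall, and because Mrpl37 was the only called gene with an E-box in its window. Each sequence holds the 250 bases before the annotated start, 5′ to 3′ on the strand of the gene, from RefSeq on GRCm38.p6. Capitals mark a motif core.
Mrpl45 (chr11:97315466-97315715, plus strand): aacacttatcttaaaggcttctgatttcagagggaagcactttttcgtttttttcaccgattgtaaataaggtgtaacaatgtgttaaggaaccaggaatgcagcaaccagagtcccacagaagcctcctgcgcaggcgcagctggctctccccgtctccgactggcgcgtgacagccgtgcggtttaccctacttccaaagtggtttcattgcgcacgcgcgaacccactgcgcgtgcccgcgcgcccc
Mrps18a (chr17:46110754-46111003, plus strand): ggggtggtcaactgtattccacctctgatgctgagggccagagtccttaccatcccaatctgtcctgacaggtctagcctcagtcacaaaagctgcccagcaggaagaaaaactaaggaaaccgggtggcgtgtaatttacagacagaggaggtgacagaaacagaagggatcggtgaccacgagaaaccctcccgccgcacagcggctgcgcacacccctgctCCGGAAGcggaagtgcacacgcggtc
Mrps7 (chr11:115603890-115604139, plus strand): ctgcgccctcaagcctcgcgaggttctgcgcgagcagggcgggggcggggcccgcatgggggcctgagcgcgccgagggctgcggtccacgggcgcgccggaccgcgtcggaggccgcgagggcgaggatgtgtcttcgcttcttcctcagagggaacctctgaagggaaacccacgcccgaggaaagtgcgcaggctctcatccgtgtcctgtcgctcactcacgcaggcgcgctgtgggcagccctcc
Mrpl37 (chr4:107066867-107067116, minus strand): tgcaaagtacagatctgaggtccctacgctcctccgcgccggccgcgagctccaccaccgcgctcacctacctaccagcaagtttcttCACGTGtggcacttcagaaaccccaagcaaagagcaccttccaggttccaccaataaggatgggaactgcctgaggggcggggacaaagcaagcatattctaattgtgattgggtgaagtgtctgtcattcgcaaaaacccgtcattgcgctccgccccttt

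Of the 14 genes that passed, 8 also passed in each of the 15 alternatives: Mrpl41, Mrpl42, Mrpl45, Mrps6, Mrps7, Mrps18a, Mrps33 and Mrps36. All 14 kept their direction in all 15, but most alternatives could not turn it. The groups did not overlap in any of the 14, so leaving out or weighting arrays kept the sign.

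The 60 genes that did not pass had differences between -0.21 and 0.26, and 6 of them had an unadjusted p under 0.05. Their 95% intervals together reached from -0.442 (Mrps22) to 0.462 (Mrps9). In 16 of them every injected array was above every not-injected one. In the large subunit these were Mrpl2, Mrpl10, Mrpl16, Mrpl17, Mrpl19, Mrpl20, Mrpl22, Mrpl36, Mrpl49, Mrpl51 and Mrpl54 (0.07 to 0.18). In the small subunit they were Mrps2, Mrps9, Mrps23, Mrps26 and Mrps35 (0.15 to 0.26), of which Mrps35 (limma adjusted p = 0.0512) and Mrps9 (0.0581) came closest to passing. In 4 genes every injected array was lower: Mrpl44, which encodes an RNase III-like protein (-0.18, limma adjusted p = 0.0512), Mrpl48, Mrps12 and Mrps34. Over all genes, passed or not, the groups were apart and higher in 20.1% and apart and lower in 26.1%. The shares among all genes that did not pass were not counted, so these counts only describe.

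In the other 40 genes the groups overlapped. Differences above 0 but with overlap (0.01 to 0.18) were read in Mrpl3, Mrpl9, Mrpl13, Mrpl27, Mrpl28, Mrpl33, Mrpl35, Mrpl46, Mrpl47, Mrpl50, Mrpl58, Mrps5, Mrps14, Mrps16, Mrps25, Mrps28 and Mrps30. Differences below 0 with overlap (-0.21 to -0.02) were read in Mrpl1, Mrpl4, Mrpl11, Mrpl15, Mrpl21, Mrpl24, Mrpl32, Mrpl34, Mrpl38, Mrpl39, Mrpl43, Mrpl52, Mrpl55, Mrpl57, Mrps11, Mrps15, Mrps17, Mrps18b, Mrps18c, Mrps21, Mrps22, Mrps24 and Mrps31. Among these, Mrpl58 encodes a peptidyl-tRNA hydrolase built into the large subunit, and Mrpl32 a protein that is matured by a protease of the inner membrane before assembly.

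Sorted by evolutionary origin, the genes gave different counts. Of 28 without a bacterial counterpart 7 rose and 0 fell in limma (median 0.092); at an unadjusted p under 0.05, 1 was lower. These rises were Mrpl37, Mrpl40, Mrpl41, Mrpl42, Mrpl45, Mrps33 and Mrps36. Of 46 with a bacterial counterpart 4 rose and 3 fell (median 0.019), the rises being Mrpl12, Mrpl23, Mrps6 and Mrps18a. In each class the share called was below the 28.1% of all genes, of which 14.2% rose and 13.9% fell. Among the 4137 other genes in the level range of the members, 22.5% rose and 20.1% fell. The difference between these classes was not tested, nor was that of either class from these backgrounds. Of the genes whose calls were lost when some single arrays were left out, Mrpl12, Mrpl14, Mrpl18 and Mrpl23 have a bacterial counterpart and Mrpl37 has none.

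Genes read by several probe sets allowed a check within the arrays. The 74 genes had 127 probe sets, 41 genes having 1 and 33 having several, and the one with the highest mean was used. Of the 53 others, 42 were at or above 5.554, the highest lower quartile of the arrays, and 29 of these had the sign of the probe set used. With all probe sets tested together, 2 of the 53 rose and 4 fell, where 5302 of all 20380 probe sets with 1 symbol were called. Mrps23 read 8.18, 7.86 and 8.11 without injection and 8.51, 8.51 and 8.56 with it on another probe set, a rise of 0.47 ± 0.09 (limma adjusted p = 0.00964), against 0.15 on the one used. Mrpl15 read 7.51, 7.57 and 7.49 without injection and 6.97, 7.18 and 7.02 with it on another probe set (-0.47 ± 0.08, limma adjusted p = 0.00485), against -0.06 on the one used. Mrpl1 read 8.36, 8.23 and 8.32 without injection and 7.89, 8.01 and 7.75 with it on another probe set (-0.43 ± 0.08, limma adjusted p = 0.00994), against -0.12 on the one used. In each of these the groups were apart on the other probe set, so whether the gene passed depended on the probe set. The remaining 2 falls, for Mrpl11 and Mrpl57, were on probe sets below the lower quartile.

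**Figure D3:**
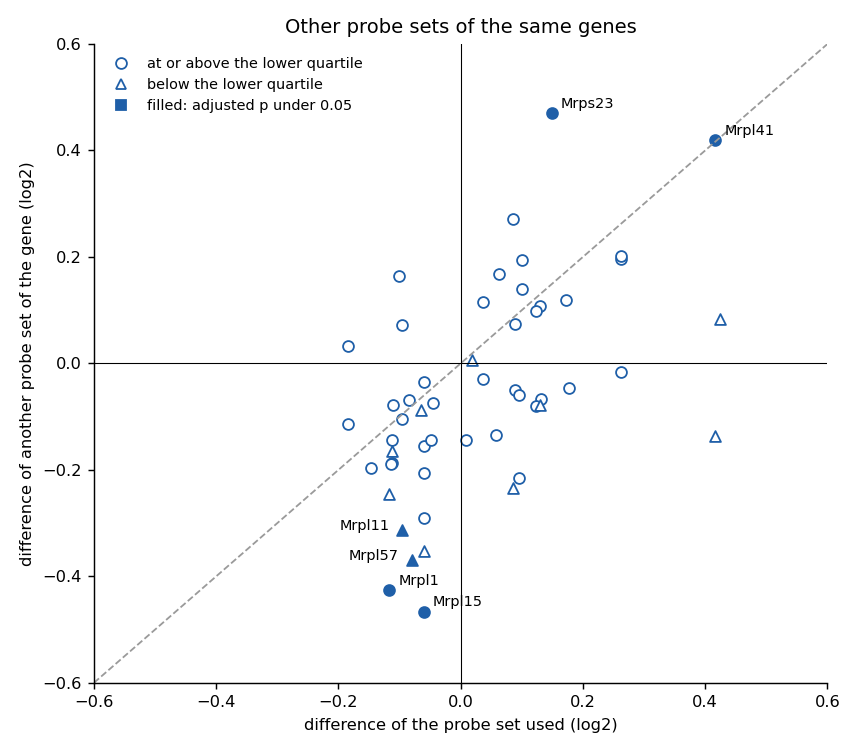
Difference in log2 units between injected and not-injected livers on the probe set used (horizontal axis) and on the other probe sets of the same gene (vertical axis), 1 point per other probe set, filled where it passed the test, triangles where it was below the lower quartile, and the dashed line marking equal values. Of the 53 points, 42 are at or above the lower quartile of the arrays and 29 of those have the same sign on both axes.

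Motif cores of 5 regulators were searched on both strands in RefSeq windows of 300 bases, 250 before and 50 after the start. Windows were found for 65 of the 74 genes, and 40 of these held at least 1 core. Backgrounds are given over all RefSeq genes and over the 9887 genes with a window that were tested on the arrays, the set the members come from. CACGTG, the E-box that TFEB binds, was in 5 of 65 windows (7.69%), against 8.09% of all and 10.8% of tested genes: those of Mrpl2, Mrpl20, Mrpl36, Mrpl37 and Mrps18c, of which Mrpl37 alone was called. CCGGAAG, the ETS core that GABP binds, was in 24 (36.9%), against 9.93% of all and 16.3% of tested genes. CATGCGC, from the NRF1 site, was in 8 (12.3%), against 4.41% of all and 6.73% of tested genes. AAGATGG, from the YY1 site, was in 12 (18.5%), against 7.28% of all and 7.86% of tested genes. AAGGTCA, from the estrogen-related receptor site, was in 4 (6.15%), against 5.38% and 4.36%. The GABP core ends, and the YY1 and estrogen-related receptor cores begin, with the same letters, so such matches can overlap. A match is a description of the sequence only.

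All 14 called genes had a window, and 7 held a core. Mrps18a had CCGGAAG 26 bases before the start, shown in capitals above, and AAGATGG 12 bases after it. Mrps33 and Mrpl18, which moved in opposite directions, also held CCGGAAG. The YY1 core AAGATGG was also in Mrpl37, Mrpl42 and Mrps7 (27, 28 and 19 bases after the start), and AAGGTCA in Mrpl12 (34 bases after it). Cores after the start lie outside the sequences shown above. The window of Mrpl45 held none of the 5 exact cores, and CATGCGC was in no called gene. Other forms of these sites were not searched, so the lack of a core does not show the lack of a site.

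Several of these genes start close to another gene. Within 1000 bases of a member's start, 19 members had a measured neighbour, and 6 of these members were called. The neighbour was called in 1 case: Pnpla7, which starts 935 bases from Mrpl41 on the opposite strand, fell by 0.86 (limma adjusted p = 0.000328) while Mrpl41 rose. Hira starts 113 bases from Mrpl40 and differed by 0.34 without passing (limma adjusted p = 0.221). Tmem63b starts 131 bases from Mrpl14 and differed by -0.22 (limma adjusted p = 0.0615).

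Genes that act beside the mitochondrial ribosome gave other counts. Each list below is to be read beside the 28.1% of all genes that were called, 14.2% higher and 13.9% lower. Of 80 subunits of the respiratory chain and ATP synthase, which include partners of the proteins these ribosomes make, 39 rose and 0 fell in limma (48.8% called, median 0.207), and 0 were lower at an unadjusted p under 0.05. Their per-array medians were 0.029, -0.020 and -0.014 in not-injected and 0.189, 0.262 and 0.186 in injected livers, so the groups were apart. Cox7a1 and Cox8b, the muscle-type forms of cytochrome c oxidase subunits, rose by 3.44 ± 0.18 and 3.22 ± 0.15 (limma adjusted p = 6.06e-05 and 5.08e-05), and Ndufs1 of complex I by 0.52 ± 0.07 (0.00171). Of 41 cytosolic ribosomal proteins, 1 rose and 2 fell (7.32% called, median -0.038): Rps25 by 0.29, Rps6 by -0.33 and Rpl27a by -0.31. These 3 genes had not-injected means of 6.74, 9.63 and 9.30, where the median level of the list over both groups was 12.92. With the mean of all probe sets the falls did not pass, Rps6 at -0.15 (limma adjusted p = 0.0949) and Rpl27a at -0.20 (0.132). The differences between these lists and the mitochondrial ribosome were not tested.

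**Figure D4:**
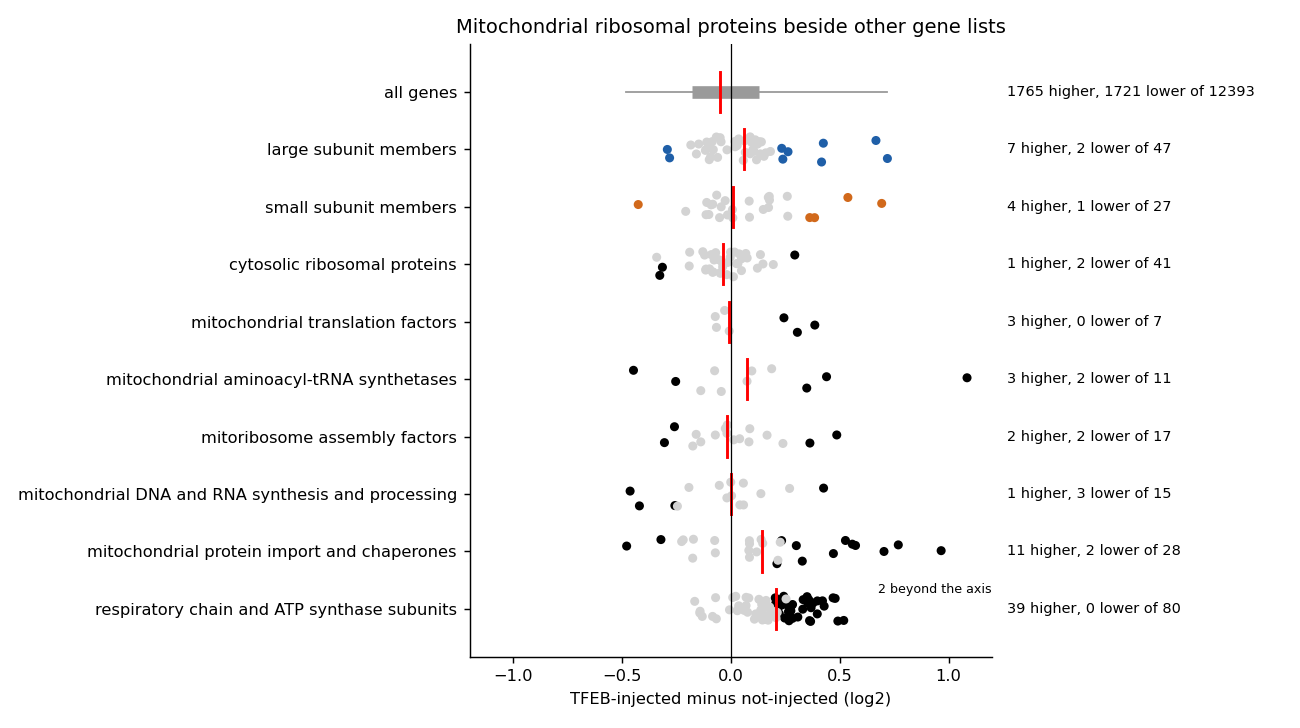
Difference in log2 units between injected and not-injected livers for each gene of the lists compared, with 1 point per gene (grey where the test was not passed), a red bar at the median of the list, and for all genes a thick line over the middle quartiles and a thin line from percentile 5 to percentile 95. Cox7a1 and Cox8b lie beyond the axis. The median is 0.062 for the large and 0.009 for the small subunit, 0.207 for respiratory chain and ATP synthase subunits and -0.038 for cytosolic ribosomal proteins.

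Mitochondrial ribosomal proteins with other symbols moved both ways. Ptcd3 rose by 0.32 ± 0.07 (limma adjusted p = 0.0161) and Gadd45gip1 fell by 0.31 (0.0257), while Dap3 (0.12, 0.192) and Chchd1 (-0.04, 0.729) did not pass. With the mean of all probe sets Gadd45gip1 was at -0.16 and did not pass (limma adjusted p = 0.0859). Of 7 measured translation factors 3 rose and 0 fell, also at an unadjusted p under 0.05 (limma, median -0.008): the elongation factors Gfm1 (0.39 ± 0.06, limma adjusted p = 0.00498) and Tufm (0.24 ± 0.07, 0.0325), and Lrpprc (0.31 ± 0.07, 0.0146), which stabilises mitochondrial messenger RNAs. With the mean of all probe sets Gfm1 was at 0.14 (limma adjusted p = 0.221) and Tufm at 0.10 (0.191), and neither passed. Tufm also did not pass with a second quantile normalization, centring, no moderation or any single array left out but not-injected replicate 1. Of 11 mitochondrial aminoacyl-tRNA synthetases and related enzymes 3 rose and 2 fell (median 0.074), those with the smallest adjusted p being Fars2 (1.08 ± 0.17, 0.0037), Iars2 (0.44, 0.0176) and Ears2 (-0.45, 0.023), which was at -0.27 with the mean of all probe sets. Of 17 assembly factors 2 rose and 2 fell (median -0.016), those with the smallest adjusted p being Fastkd2 (0.49 ± 0.09, 0.00633), Mtg2 (-0.31, 0.0231) and Trub2 (0.36, 0.0292).

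Of 28 import proteins and chaperones, which bring these proteins into the organelle, 11 rose and 2 fell (46.4% called, median 0.143). Over all genes 28.1% were called, and 42.6% of the 4137 other genes at levels of 8.42 to 12.26. The median level of the import list was 10.66, and its difference from these shares was not tested. Chchd4 rose by 0.97 ± 0.10, Timm44 by 0.77 ± 0.06 and Timm10 by 0.70 ± 0.06 (limma adjusted p = 0.000894, 0.000328 and 0.000473). Among 9 proteases and related chaperones, the latter including Clpx and Trap1, 2 rose and 1 fell (median -0.032). The rises were Afg3l2 (0.49 ± 0.09, limma adjusted p = 0.0066) and Spg7 (0.35 ± 0.10, 0.038), subunits of the inner membrane protease that matures Mrpl32. Clpx fell by 0.46 (0.0137). Mrpl32 itself differed by -0.02. Of 15 genes for synthesis and processing of mitochondrial DNA and RNA 1 rose and 3 fell, those with the smallest adjusted p being Elac2 (-0.26, 0.0223), Polg (0.43, 0.0231) and Hsd17b10 (-0.46, 0.0355). Tfam (0.06, 0.554) and Tfb2m (-0.05, 0.599) did not pass.

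Among 12 regulators of nuclear genes for mitochondria 3 rose and 1 fell (median 0.144). Ppargc1a, which encodes PGC-1 alpha, read 8.15, 7.61 and 8.04 without injection and 10.32, 10.14 and 10.05 with it, a rise of 2.24 ± 0.15 (limma adjusted p = 0.000122). Esrra read 7.98, 8.21 and 8.01 without injection and 8.55, 8.63 and 8.69 with it (0.56 ± 0.08, limma adjusted p = 0.00321). In both genes the groups were far apart. Myc rose by 1.87 ± 0.32 (limma adjusted p = 0.00529) and Esrrg, named after its values were seen and not followed through the alternatives, fell by 0.34 (0.0344). Nrf1 (0.07, 0.619) and Gabpa (-0.12, 0.207) did not pass. Of the called genes named from these pathway lists, Cox7a1, Cox8b, Ndufs1, Timm44, Timm10, Chchd4, Afg3l2, Fars2, Fastkd2, Ppargc1a and Esrra passed in every alternative. Gfm1 lost its call with the mean of all probe sets, and Clpx and Myc lost theirs without moderation. Rps25, Rps6, Rpl27a, Ptcd3, Gadd45gip1, Tufm, Lrpprc, Iars2, Ears2, Mtg2, Trub2, Elac2, Polg, Hsd17b10 and Spg7 each lost theirs when some single arrays were left out, with adjusted p up to 0.127. Each of the 6 arrays cost at least 1 of these calls, and leaving out injected replicate 2 cost that of Tufm alone.

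Some markers of liver cell types moved as well. The share called was 66.7% for sinusoidal endothelium, 33.3% each for macrophages and hepatocytes, 20.0% for lymphocytes and 16.7% for stellate cells. Over all genes it was 28.1%, and these lists are short. Of 6 sinusoidal endothelial markers 4 rose, Lyve1 by 2.10, and the log2 of their mean linear level was 8.99 to 9.16 without and 9.55 to 9.80 with injection. Of 9 macrophage markers 2 rose (Cd68 and Cd5l) and 1 fell (Marco), with levels of 9.92 to 10.29 and 10.27 to 10.48. Of 9 hepatocyte markers 1 rose (Apob) and 2 fell (Hp and Fga), with levels of 14.42 to 14.43 and 14.33 to 14.35. Ptprc rose among 5 lymphocyte markers, S100a8 among 2 neutrophil markers, and Alas2 fell among 2 erythroid markers. Of 6 stellate cell markers 0 rose and 1 fell, and of 4 cholangiocyte markers 0 passed in limma, with 1 higher and 1 lower at an unadjusted p under 0.05. The part of cell composition in the differences of ribosomal protein genes was not tested.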

How the data were processed

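Total RNA from 6 livers, 3 per group, was hybridised to Affymetrix arrays. The authors deposited log2 expression values per probe set; the submitters' processing notes name affy and RMA, and the source used here gives no version. Of 22690 probe sets, 64 are controls, 20380 carry 1 gene symbol in the platform annotation, 691 several and 1555 none. For each of 12393 genes the probe set of highest average signal across arrays was used, and 12369 had an identifier in the RefSeq table. The groups were compared with lmFit and eBayes of limma 3.58.1 in R 4.3.3, two-sided, with Benjamini-Hochberg adjustment over all genes and a threshold of 0.05. Errors are SE from limma unless given as SD. The code was tested on simulated data.

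Replicates are different mice per the labels, and 3 arrays per group limit the precision. RMA brings the probe intensities of all arrays to 1 distribution, so a shift shared by all genes is not visible in these values. The values per probe set still differed a little. Upper quartiles were 8.929 to 8.971 on not-injected and 8.99 to 9.044 on injected arrays. Every member was to be named, with values by array for called members, the Mrps18 family, Mrpl12 and Mrps12, and up to 3 called genes of each pathway list. Members and lists were chosen with earlier results of these data known. Alternatives covered the replicate block, variance moderation, probe set choice, level filter, normalization, array weights, the subunit assignment and the omission of each array. Probe sets with several symbols were left out of the tests.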

Additional observations from a re-analysis of the deposited data

How the results depend on the processing

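Of the 14 called genes, 8 kept their call in each of the 15 alternatives. All 14 kept their direction, which the replicate block or a change of moderation leaves as it is. Leaving out or weighting arrays could not turn it either, because the groups did not overlap in these genes. Replicate numbers are shared by the groups, but deviations of same-numbered arrays correlated at 0.136, 0.057 and 0.011, and not every array correlated best with its own number, so the samples share only a number. With the replicate block 10 of the 14 genes were called (Mrpl12, Mrpl14, Mrpl18 and Mrpl37 were not), 3348 genes over all, and 0 falls in the large subunit. Of the pathway genes named, Tufm, Spg7 and Rps6 also lost their calls with it. Without moderation 1881 genes were called, 919 higher and 962 lower, with 4 rises and 1 fall in the large subunit. With every probe set 5302 of 20380 were called, 2665 of them lower, and the large subunit had 5 falls and a median of -0.04. The mean of all probe sets gave 5 falls in the large subunit and turned Nrf1 to -0.13. Genes at or above the median level gave 7 rises in the small subunit, as did array weights, and assignment by structure gave 2. Leaving out 1 array gave 1973 (without not-injected replicate 2) to 4378 called genes, 1036 to 2149 higher and 936 to 2229 lower. It gave 4 to 7 rises in the large subunit, 4 without not-injected replicate 2 or 3 or injected replicate 3, and 0 to 3 falls. In the small subunit it gave 4 to 5 rises and 1 fall, and medians of -0.003 to 0.041 against 0.025 to 0.096 in the large subunit. For Mrps18b it gave -0.0696 to 0.0349, the latter without injected replicate 1. The cause of these changes was not tested. With 3 arrays per group and a median SE of 0.073, differences well above that SE could go uncalled. Mrps9 at 0.26 did not pass, and the 95% intervals of genes that did not pass reached -0.442 and 0.462.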

Other observations

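Mitochondrial ribosomal protein genes are also read by 3 probe sets that the annotation gives to 2 genes, which entered no test. The probe set of Nme3 and Mrps34 read 9.23, 9.12 and 9.01 in not-injected and 8.51, 8.70 and 8.53 in injected livers, a difference of -0.54, with the groups apart. The probe set of Mrps34 alone gave -0.11. The probe set of Gm6238 and Mrpl30 read 11.54, 11.59 and 11.58 without injection and 11.42, 11.63 and 11.42 with it (-0.08), and the groups overlapped. The probe set of Ccdc142 and Mrpl53 read 10.83, 10.70 and 10.65 without injection and 10.65, 10.65 and 10.57 with it (-0.10), also with overlap.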
